A study of Homo sapiens with 12 samples.

Results

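Transcriptomes of triple-negative breast cancer cells given JQ1 together with GSK2801 were compared with those of the same cells given the vehicle DMSO. The comparison holds 6 of the 12 libraries of the study, namely the 3 labelled with both inhibitors and the 3 labelled DMSO, and they were paired by cell line. With both inhibitors, SUM159 received 300 nM JQ1, MDAMB231 100 nM and HCC1806 500 nM, each together with 10 µM GSK2801, and RNA was taken at 72 h. The DMSO cultures of the same lines were also taken at 72 h. SUM159 and MDAMB231 are mesenchymal-like lines, and their medium was DMEM/F12 supplemented with serum, hydrocortisone and insulin. HCC1806 is an epithelial, basal-type line kept in RPMI 1640 with serum. With 1 library per line and treatment, the effects of line, of its medium and of its JQ1 dose cannot be told apart. The p-values below take the 3 lines as replicates and carry no information on the spread among cultures of 1 line.

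JQ1 occupies the acetyl-lysine pockets of the BET family, to which BRD2 and BRD3 belong and whose members recruit the elongation kinase P-TEFb to chromatin. GSK2801 occupies the bromodomains of BAZ2A and BAZ2B, subunits of chromatin remodelling complexes, of which BAZ2A is known for silencing ribosomal RNA genes. HEXIM1, an inhibitor of P-TEFb, is a common readout of BET inhibition, whereas FOXM1 is a transcription factor that drives the genes of mitosis. HIST1H1C encodes a linker histone and belongs to the histone genes that can also be read into polyadenylated transcripts outside S phase.

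Depth ranged over 24200000 to 46800000 estimated reads per library, and 16115 to 16533 genes had a value above 0. All values are estimated reads that the authors had scaled to a common upper quartile of 1663.93, called scaled reads here. They are given in the order SUM159, MDAMB231, HCC1806 throughout. VIM, ZEB1, CDH1, EPCAM and KRT5 went with the descriptions of the lines, while CDH2, KRT14 and KRT17 did so only in part. VIM stood at 109386, 140589 and 46.9 scaled reads with the combination, against 91350, 93281 and 77.0 with DMSO. CDH1 stood at 2.83, 30.0 and 27120 with the combination, against 30.5, 13.6 and 14154 with DMSO. The mesenchymal marker CDH2 stood at 6761, 5.38 and 1272, against 5173, 17.3 and 951, so it was low in MDAMB231. The basal keratin genes KRT14 and KRT17 were highest in HCC1806 with DMSO, at 57.1 and 167. With the combination they were at 4.61 and 2.11 there, below SUM159. The receptor genes ESR1 and PGR were at most 105 in any of the 6 libraries. Of 15 blood and endothelial markers, 4 were at 0 in all 6 libraries, among them HBB, and their summed level was 1029 to 8797 with the combination against 1039 to 3149 with DMSO. The highest sums were nearly all CD68, at 8767 with the combination and 3128 with DMSO in MDAMB231. Of the 5 of these markers that were tested below, 2 had a positive and 3 a negative mean log2 ratio. Of 12 fibroblast and adipocyte markers, 1 was at 0 in all 6, and their sum was 127 to 12345 against 208 to 59194. Of 14 luminal markers, 1 was at 0 in all 6, and their sum was 13942 to 176091 against 13365 to 72953. Their part in the results was not tested. In bulk RNA, fewer cells of a type and less RNA per cell cannot be told apart.

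Genes with a mean of at least 10 scaled reads over the 6 libraries were tested on the log2(value + 1) scale. Of 14218 such genes, 491 (3.45%) rose and 503 (3.54%) fell with JQ1 plus GSK2801, or 6.99% in all (limma with line as a block, Benjamini-Hochberg adjusted p below 0.05). Among these, 395 of the rises and 426 of the falls were at least 2-fold. The smallest adjusted p was 0.0235, and 4395 genes had an unadjusted p below 0.05. Leaving out MDAMB231 brought the number that passed to 40, leaving out HCC1806 to 314 and leaving out SUM159 to 1059. With so few genes left without MDAMB231, a list below that then held no call shows nothing particular to that list. Quantile normalization gave 547 rises and 354 falls. Within single lines, where nothing could be tested, 22.4%, 27% and 24.9% of genes differed at least 2-fold between the combination and DMSO in SUM159, MDAMB231 and HCC1806. MDAMB231, the line with the lowest JQ1 dose, had the most such genes, 1801 higher and 2040 lower. Its combination library was also the deepest, at 46800000 estimated reads. With JQ1 alone against DMSO the shares were 17.7%, 18% and 21.1%, highest in HCC1806, the line with the highest dose. Log2 ratios had the same sign in the 3 lines for 7476 genes (52.6%). At least 2-fold changes in each of the 3 lines were seen upward in 367 genes (2.58%) and downward in 492 (3.46%). The 3 combination libraries all lay above the 3 DMSO libraries for 782 genes (5.5%) and below them for 1089 (7.66%). Protein-coding genes passed upward in 3.61% and downward in 3.62% of 13351, and long noncoding RNAs in 0.642% and 2.09% of 623.

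HEXIM1 had 9756, 8933 and 8566 scaled reads with JQ1 plus GSK2801, against 2928, 3018 and 2510 with DMSO. The lowest of the combination libraries lay well above the highest of the DMSO libraries. It rose 3.23-fold (log2 1.69 ± 0.15, SE, n = 3 lines, adjusted p = 0.0235), and the 3 lines differed little. BRD2, a BET protein that JQ1 binds, had 28911, 17739 and 21530 with the combination, against 8577, 7509 and 7508 with DMSO. The groups did not overlap, and BRD2 rose 2.84-fold (adjusted p = 0.0255). Of 18 tested BET proteins and P-TEFb regulators these were the 2 that rose and none fell, with a median log2 change of 0.01 beside -0.08 over all genes tested. BRD3 (0.39 ± 0.16), the P-TEFb kinase gene CDK9 (-0.01 ± 0.17) and the elongation scaffold genes AFF4 (0.59 ± 0.17) and AFF1 (0.91 ± 0.21) did not pass. CDK9 was at 0.05 after median-of-ratios rescaling. BAZ2A (0.07 ± 0.22) and BAZ2B (-0.23 ± 0.23), whose products GSK2801 binds, did not pass either. The bromodomain protein gene BRD9 was lower in each line and did not pass (-0.33 ± 0.18). Of 30 genes of the BAZ family and other bromodomain proteins, ZMYND8 alone passed, at 932, 3193 and 727 with the combination against 7391, 6525 and 2942 with DMSO (-2.01 ± 0.36).

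HIST1H1C had 5700, 2462 and 2143 scaled reads with the combination, against 724, 505 and 147 with DMSO. Every combination library lay above every DMSO library, and the ratio was widest in HCC1806. It rose 8.21-fold (3.04 ± 0.31, adjusted p = 0.0235). FOXM1 had 1989, 1094 and 3541 with the combination, against 4336, 6470 and 8023 with DMSO. The groups did not overlap and the fall was deepest in MDAMB231, with log2 ratios of -1.12, -2.56 and -1.18. FOXM1 fell by 1.62 ± 0.31 on the log2 scale (adjusted p = 0.042). It missed the threshold without MDAMB231 (adjusted p = 0.0561) and without HCC1806 (0.0515). HEXIM1 and HIST1H1C passed without any 1 line.

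**Figure D1:**
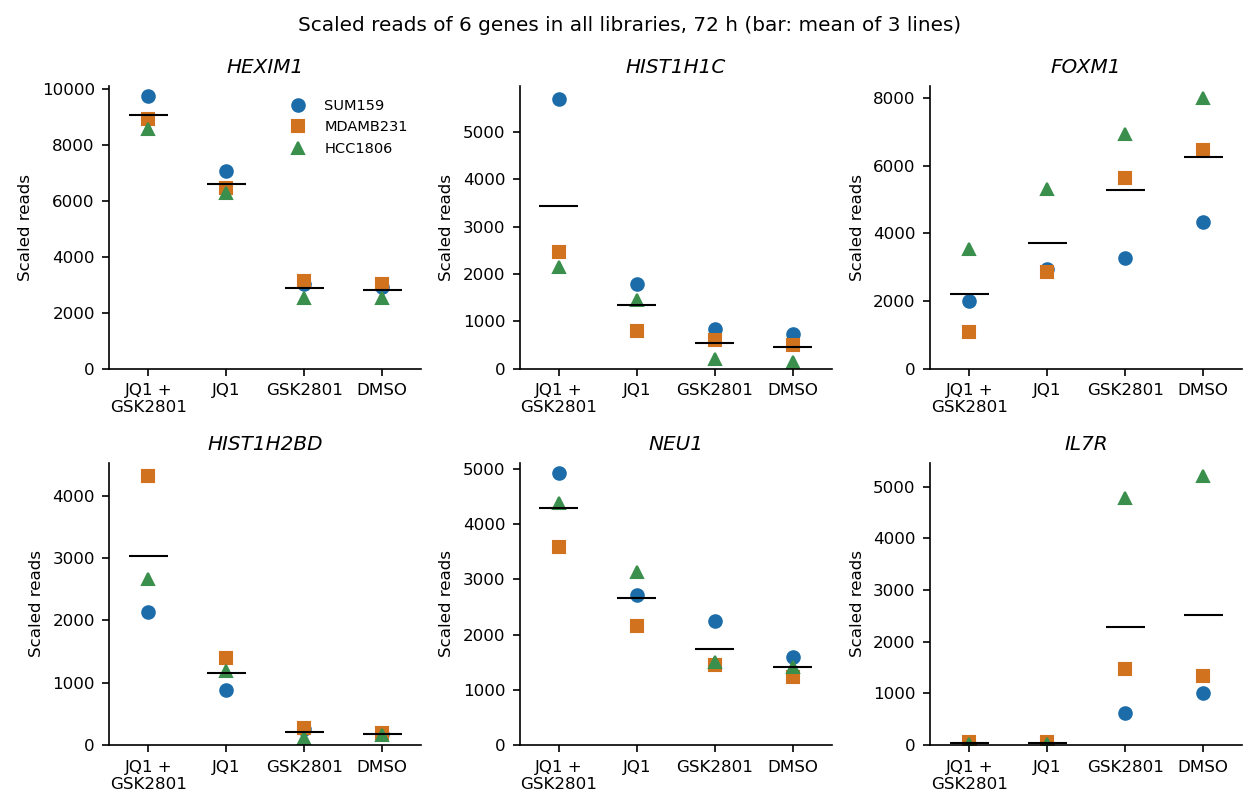
Scaled reads (y axis, linear) of HEXIM1, HIST1H1C, FOXM1, HIST1H2BD, NEU1 and IL7R in the 12 libraries, by treatment (x axis), with 1 point per line and a bar at the mean of 3 lines. HEXIM1 lies at 8566 to 9756 with both inhibitors against 2510 to 3018 with DMSO, and FOXM1 at 1094 to 3541 against 4336 to 8023.

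The promoters of the genes that carry the histone, lysosome and interferon results are shown next, since short elements in them are known to set when these genes are read. The windows run from 250 bases before to 50 bases after a RefSeq start (GRCh38.p14), 5′ to 3′ on the gene's strand. Capitals mark CCAAT boxes (CCAAT), TATA boxes (TATAAA), octamers (ATTTGCAT, an element of H2B promoters), H1 boxes (AAACACA, of linker histone promoters), E-boxes (CACGTG, which the lysosomal regulator TFEB can bind) and interferon elements (GAAA, any 2 bases, GAAA), each searched on both strands. The HEXIM1 window lies at chr17:45148225-45148524 (+), HIST1H1C at chr6:26056421-26056720 (-), HIST1H2BD at chr6:26157871-26158170 (+), HIST2H2BE at chr1:149886633-149886932 (-), NEU1 at chr6:31862772-31863071 (-) and IFI44 at chr1:78649539-78649838 (+).
HEXIM1: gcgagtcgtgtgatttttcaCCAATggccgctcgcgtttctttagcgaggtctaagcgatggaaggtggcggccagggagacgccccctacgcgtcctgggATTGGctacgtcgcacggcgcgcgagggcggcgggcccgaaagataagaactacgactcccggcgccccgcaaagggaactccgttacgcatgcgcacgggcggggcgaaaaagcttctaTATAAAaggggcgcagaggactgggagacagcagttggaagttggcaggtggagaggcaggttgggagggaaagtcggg
HIST1H1C: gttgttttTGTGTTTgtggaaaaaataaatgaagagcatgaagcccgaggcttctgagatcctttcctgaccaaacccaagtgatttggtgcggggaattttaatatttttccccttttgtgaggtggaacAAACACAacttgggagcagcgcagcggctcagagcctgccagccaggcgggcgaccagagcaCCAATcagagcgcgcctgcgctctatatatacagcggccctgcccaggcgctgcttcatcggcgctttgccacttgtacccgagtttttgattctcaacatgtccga
HIST1H2BD: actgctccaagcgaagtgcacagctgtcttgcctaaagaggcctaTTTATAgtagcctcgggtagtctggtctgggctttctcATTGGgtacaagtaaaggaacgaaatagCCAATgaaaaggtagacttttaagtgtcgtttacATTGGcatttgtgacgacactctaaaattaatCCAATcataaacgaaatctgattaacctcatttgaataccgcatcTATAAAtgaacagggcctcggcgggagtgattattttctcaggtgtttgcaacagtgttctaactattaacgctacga
HIST2H2BE: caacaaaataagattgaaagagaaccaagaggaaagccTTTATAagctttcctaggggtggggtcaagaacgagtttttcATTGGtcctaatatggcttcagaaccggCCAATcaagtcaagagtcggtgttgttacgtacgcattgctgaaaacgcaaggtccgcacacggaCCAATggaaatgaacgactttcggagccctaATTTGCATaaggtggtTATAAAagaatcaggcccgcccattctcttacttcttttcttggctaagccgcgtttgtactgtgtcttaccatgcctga
NEU1: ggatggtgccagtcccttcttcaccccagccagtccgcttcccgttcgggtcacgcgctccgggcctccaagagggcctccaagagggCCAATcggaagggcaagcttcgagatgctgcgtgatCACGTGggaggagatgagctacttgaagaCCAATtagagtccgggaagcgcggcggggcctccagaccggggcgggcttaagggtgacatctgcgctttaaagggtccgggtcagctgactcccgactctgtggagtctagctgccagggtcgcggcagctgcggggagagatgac
IFI44: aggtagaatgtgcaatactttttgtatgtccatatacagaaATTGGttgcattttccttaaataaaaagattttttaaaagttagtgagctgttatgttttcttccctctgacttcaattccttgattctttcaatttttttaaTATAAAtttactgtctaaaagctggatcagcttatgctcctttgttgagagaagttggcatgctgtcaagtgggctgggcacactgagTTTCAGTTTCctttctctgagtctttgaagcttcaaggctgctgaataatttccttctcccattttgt

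HEXIM1 has a TATA box whose first base lies at -29 and CCAAT boxes at -230 and -149 from its start. HIST1H2BD has TATA boxes at -205 and -28 and 4 CCAAT boxes. HIST2H2BE has TATA boxes at -212 and -30, 3 CCAAT boxes and an octamer at -46. HIST1H1C has H1 boxes at -242 and -119 and a CCAAT box at -57. NEU1 holds an E-box at -126 and CCAAT boxes at -162 and -97. IFI44 holds an interferon element at -18, a TATA box at -106 and a CCAAT box at -209. Of the tested genes, 11373 (80%) matched a window. Among windows of these genes 34.9% held CCAAT, 6.78% TATAAA, 1.39% ATTTGCAT, 3.61% AAACACA, 9.08% CACGTG and 2.97% the interferon element. Among windows of the 11 histone genes that rose, 11 of 15 held CCAAT, 7 TATAAA and 3 ATTTGCAT. CACGTG was in 5 of 12 windows of lysosome and autophagy genes that rose and likewise in 5 of 11 windows of ribosome biogenesis genes that fell. The interferon element was in 5 of 8 windows of interferon response genes that fell. A match describes these letters only, and windows of 1 gene overlap. Shares among members of the same lists that did not pass were not computed. The counts thus cannot tell an element of a gene family from one of the members that passed. Over all genes that rose, 34.9% of windows held CCAAT, 7.72% TATAAA, 7.54% CACGTG and 1.58% the interferon element. Over all that fell, 29.1% held CCAAT, 7.89% TATAAA, 10.5% CACGTG and 5.76% the interferon element.

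The 12 rises named are those with the largest least change over the 3 lines. EFR3B, which encodes a membrane scaffold of phosphatidylinositol kinase, led with 1204, 1191 and 927 scaled reads with the combination, against 17.6, 27.9 and 2.14 with DMSO. The groups were far apart, and EFR3B rose by 6.53 ± 0.59 (adjusted p = 0.0235). DPYSL3, a regulator of the neuronal cytoskeleton, had 2319, 509 and 1140 with the combination, against 31.6, 48.2 and 15.0 with DMSO (5.23 ± 0.60). Its response in MDAMB231 was the smallest of the 3 lines. BAIAP3, which acts in the release of dense-core vesicles, had 486, 628 and 1399 with the combination, against 39.0, 24.3 and 92.9 with DMSO (4.05 ± 0.32). FGFR3, a fibroblast growth factor receptor, had 365, 403 and 4330 with the combination, against 34, 38.4 and 587 with DMSO (3.21 ± 0.26). Within each line FGFR3 was higher with the combination, while the groups overlapped because HCC1806 started high. CAPN5, a calpain protease (3.85 ± 0.32), YPEL1 (3.72 ± 0.39) and C14orf37 (4.45 ± 0.54) also rose. The other 5 were histone genes, described below. Of the 12 rises, 9 passed without any 1 line, beside 19 of all 112 named genes that had passed. The rule that chose the 12 favours such genes, so the count is no separate support for them. YPEL1 (adjusted p = 0.0553), C14orf37 (0.0559) and HIST2H2BE (0.0502) missed the threshold without MDAMB231.

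Among the 12 falls, IL7R, the interleukin-7 receptor, had 16.1, 53.4 and 19.2 scaled reads with JQ1 plus GSK2801, against 1004, 1338 and 5210 with DMSO. Every combination library lay below every DMSO library, and IL7R fell by 6.17 ± 0.63 (adjusted p = 0.0235). HAS2, a synthase of the matrix polymer hyaluronan, had 12.1, 44.5 and 65.0 with the combination, against 289, 1013 and 2375 with DMSO (-4.71 ± 0.30). Its log2 ratios of -4.47, -4.48 and -5.17 were close to each other. NAV3 (-4.92 ± 0.57), FAM196B (-4.45 ± 0.46), the long noncoding RNA SFTA1P (-4.38 ± 0.53), the double-stranded RNA sensor TLR3 (-3.89 ± 0.40) and the neuropeptide gene GAL (-3.27 ± 0.28) fell in each line. The remaining 5, namely DEF6, IFI44, TESMIN, ZNF532 and PIK3AP1, fell by 2.96 to 3.17 on the log2 scale. Of the 12 falls, which the same kind of rule chose, IL7R, HAS2, GAL and ZNF532 passed without any 1 line. The others missed the threshold without MDAMB231, with adjusted p of 0.0502 to 0.0854, and PIK3AP1 also without HCC1806 (0.0556). Ratios of genes with values of a few reads in 1 group depend on the pseudocount of 1.

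**Figure D2:**
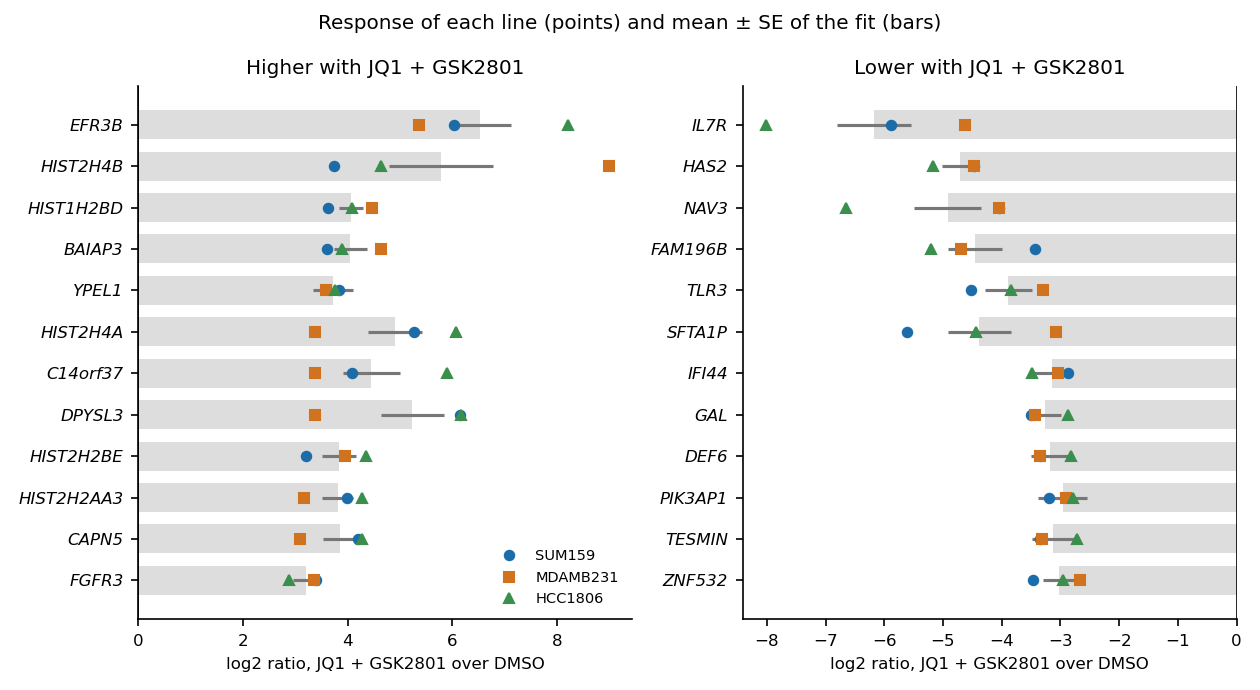
Log2 ratios of the combination over DMSO (x axis) for the 12 rises and 12 falls with the largest least change, with 1 point per line and bars at the mean with its SE. The points of each gene lie on 1 side of 0, which the rule that chose these genes required. EFR3B lies at 5.37 to 8.21 and IL7R at -8.01 to -4.62.

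Linker and core histone genes had the largest share of rises among the 34 lists examined. Over all genes tested 3.45% rose and 3.54% fell, and every list below is to be read beside these shares. The lists were written with earlier results of these data known, so their counts and medians are descriptions and no separate support. A single call in a list amounted to 1.89% to 5% of the members tested. Of 45 names 36 had a mean of at least 10 and were tested, and of these 11 rose and none fell, and their median log2 change was 1.24 beside -0.08 over all genes. The 5 in the HIST1 cluster on chromosome 6, of 15 tested there, were HIST1H1C, HIST1H2AC (3.80 ± 0.36), HIST1H2BC (3.76 ± 0.47), HIST1H2BD and HIST1H4H (3.22 ± 0.53). Another 5, of 7 tested, lie in the HIST2 cluster on chromosome 1, and the last was the replacement histone gene H3F3A (0.76 ± 0.15). HIST1H2BD, a core histone H2B gene, had 2138, 4324 and 2659 scaled reads with the combination, against 172, 195 and 155 with DMSO. The groups were separated more than 10-fold, and HIST1H2BD rose by 4.06 ± 0.23 (adjusted p = 0.0235). HIST2H2BE, another H2B gene, had 2004, 290 and 515 with the combination, against 218, 18.0 and 24.3 with DMSO (3.83 ± 0.33). Each line rose, yet MDAMB231 with the combination stayed close to SUM159 with DMSO. HIST2H2AA3 (3.81 ± 0.30), HIST2H2AA4 (4.48 ± 0.92), HIST2H4A (4.90 ± 0.52) and HIST2H4B (5.78 ± 0.99) rose as well. These are pairs of near-identical genes between which the counting may have divided reads, so single copies are uncertain. HIST2H4B is listed at 0 with DMSO in MDAMB231 and HIST2H2AA4 with DMSO in HCC1806. HIST1H2AC and HIST1H2BC, chosen after their values were seen, are read in opposite directions from starts whose promoter windows share 255 bases at chr6:26123922-26124176.

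Other histone genes did not pass. Among them were the linker genes HIST1H1A (0.28 ± 0.71), HIST1H1B (0.19 ± 0.64) and HIST1H1D (0.32 ± 0.55), the core gene HIST2H2AC (0.11 ± 0.58) and the variant H2AFZ (-0.27 ± 0.25), which were chosen after their values were seen. H1F0, a linker histone of resting and differentiated cells, had 4244, 7859 and 16664 with the combination, against 1413, 5706 and 3461 with DMSO (1.44 ± 0.34, adjusted p = 0.0588). List medians by line were 1.30 in SUM159, 0.18 in MDAMB231 and 2.31 in HCC1806, and 30, 18 and 33 of 36 members were above their DMSO value. Leaving out SUM159, MDAMB231 or HCC1806 gave 13, 5 or 8 rises.

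Neural and neuroendocrine genes held 8 rises and no fall among the 34 of 43 that were tested, with a median of 0.89. Beside EFR3B, DPYSL3 and BAIAP3, the microtubule protein gene MAP1A had 662, 502 and 2394 with the combination, against 104, 30.1 and 44.9 with DMSO (4.13 ± 0.57). The groups did not overlap. RAB3A, a small GTPase of synaptic vesicles (1.74 ± 0.39, adjusted p = 0.0545), and the neuronal enolase ENO2 (1.09 ± 0.24, 0.0525) did not pass. Without MDAMB231 4 members rose.

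Lysosome and autophagy genes rose in 12 of 47 tested and fell in none, with a median of 0.56. NEU1, the lysosomal sialidase, had 4928, 3581 and 4378 scaled reads with the combination, against 1590, 1227 and 1414 with DMSO. The groups did not overlap, the log2 ratios of 1.63, 1.54 and 1.63 were nearly alike, and NEU1 rose by 1.60 ± 0.15 (adjusted p = 0.0235). GRN, the precursor of granulins (1.42 ± 0.22), PSAP, the precursor of saposins (1.36 ± 0.18), and TP53INP1, an autophagy protein (2.58 ± 0.47), rose too. TFEB, a transcription factor of lysosome genes, did not pass, at 181, 32.7 and 70.4 against 539, 67.8 and 213 (-1.39 ± 0.32, adjusted p = 0.0548). It was lower in each line. All 12 calls were lost without MDAMB231 and 5 were made without HCC1806, where fewer libraries entered the fit, while the list median was 0.56 and 0.59.

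Of 31 targets of NRF2, the regulator of oxidative stress genes, and of the aryl hydrocarbon receptor, 4 rose and 1 fell, with a median of 0.34. FTH1, the ferritin heavy chain, had 427834, 177157 and 50616 with the combination, against 72996, 25442 and 19974 with DMSO (2.23 ± 0.32). It was higher in each line and has processed copies that may share its reads. CYP1A1, an aryl hydrocarbon receptor target that oxidises xenobiotics, had 179, 579 and 3934 with the combination, against 32.8, 91.2 and 1338 with DMSO (2.21 ± 0.30). It was higher in each line, while its level differed widely between lines. The thioredoxin reductase TXNRD1 rose as well (1.54 ± 0.18). SLC7A11, the cystine importer, went the other way, at 1017, 3499 and 2226 with the combination against 4692, 9520 and 9930 with DMSO (-1.94 ± 0.20, adjusted p = 0.0235). Its groups did not overlap, and it passed without any 1 line. AHR, the receptor itself (1.47 ± 0.31, adjusted p = 0.0501), and NFE2L2, which encodes NRF2 (0.22 ± 0.15), did not pass. Without MDAMB231, where few genes passed in all, none of the rises of this list passed.

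PPAR targets and genes of fatty acid oxidation rose in 5 of 32 and fell in 1, with a median of 0.35. ANGPTL4, a secreted inhibitor of lipoprotein lipase, had 1037, 5311 and 1649 with the combination, against 196, 706 and 461 with DMSO (2.38 ± 0.25). HADHB, an enzyme of mitochondrial fatty acid oxidation, rose (0.90 ± 0.18), and ACSL5, an acyl-CoA synthetase, fell by 3.34 ± 0.53 on the log2 scale. The receptors PPARG (-0.56 ± 0.16) and PPARD (0.02 ± 0.18) did not pass. Hypoxia and glycolysis genes rose in 3 of 38 (7.89%) and fell in 1 (2.63%), beside 3.45% and 3.54% of all genes. Their median was 0.20. EPAS1, a hypoxia-inducible factor (1.12 ± 0.19), and NDRG1 (1.86 ± 0.34) rose, while the angiogenic factor VEGFA had 515, 324 and 337 with the combination against 1183, 985 and 886 with DMSO (-1.40 ± 0.20). Of 37 genes of cholesterol and fatty acid synthesis 1 passed, the sterol reductase TM7SF2 (3.06 ± 0.32). This rise was 2.7% of the list, beside 3.45% of all genes. Without MDAMB231, where few genes passed in all, no member of these 3 lists passed.

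Mitosis genes were lower as a list mainly in 1 line. Of 44 genes of FOXM1 and mitosis, FOXM1 alone passed, a share of 2.27% beside the 3.54% of all genes that fell. Still, 43 had a negative mean log2 ratio and the median was -0.94. The list medians were -0.36 in SUM159, -2.27 in MDAMB231 and -0.11 in HCC1806, and 5, 0 and 18 members were above DMSO. PLK1, a kinase of mitotic entry, had 2549, 634 and 2903 scaled reads with the combination, against 3757, 4380 and 3767 with DMSO (-1.24 ± 0.48, adjusted p = 0.145). MKI67, which encodes the proliferation antigen Ki-67, had 13064, 1936 and 33186 with the combination, against 19668, 14857 and 43102 with DMSO (-1.30 ± 0.50, 0.146). In both genes MDAMB231 stood apart, with log2 ratios of -2.79 and -2.94. Leaving out MDAMB231 moved the list median to -0.27, and leaving out SUM159 or HCC1806 to -1.16 or -1.33.

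DNA replication and E2F genes fell in 3 of 46 and rose in none, with a median of -0.60 and line medians of -0.05, -1.52 and -0.11. MCM5, a subunit of the replicative helicase, had 1403, 719 and 1520 with the combination, against 3237, 3231 and 3432 with DMSO (-1.52 ± 0.24). The groups did not overlap. E2F2 (-2.49 ± 0.39) and the polymerase subunit POLE2 (-1.48 ± 0.27) fell, and E2F1 did not pass, with log2 ratios of 0.63, -1.15 and 0.06. Of 42 homologous recombination and checkpoint genes RAD51D fell (-1.81 ± 0.29), a share of 2.38% beside 3.54% of all genes. The line medians were -0.08, -1.17 and -0.08. Without MDAMB231, where few genes passed in all, no member of these lists passed. Leaving out SUM159 gave 8 and 4 falls.

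**Figure D3:**
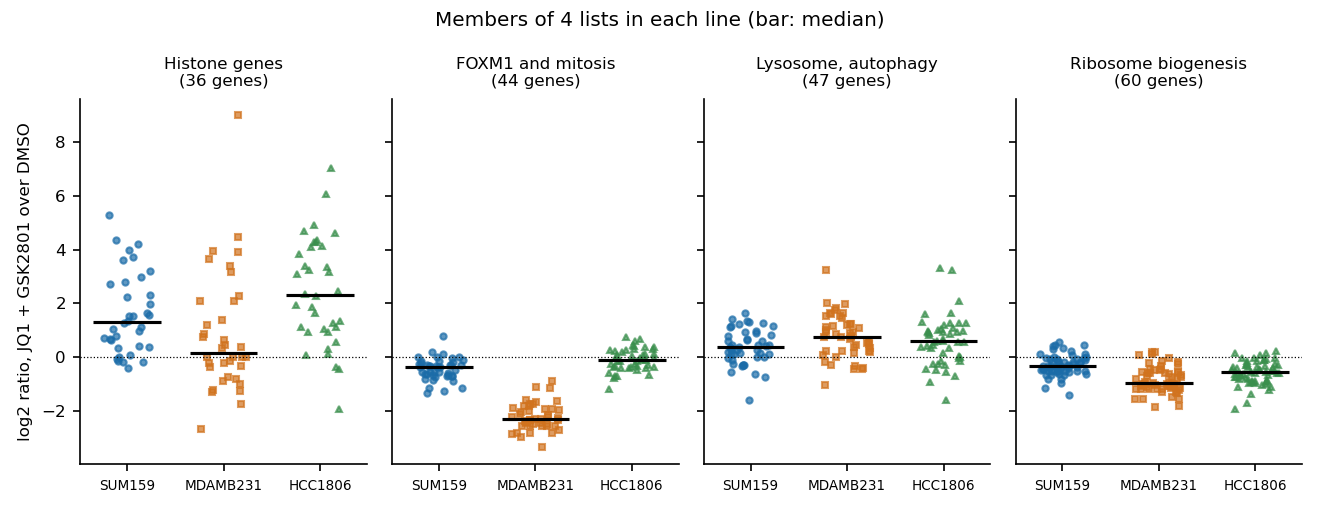
Log2 ratios of the combination over DMSO (y axis) for all tested members of 4 lists, by line (x axis), with 1 point per gene and a bar at the median. The 44 mitosis genes have medians of -0.36, -2.27 and -0.11, and the 36 histone genes medians of 1.30, 0.18 and 2.31.

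Ribosome biogenesis and RNA polymerase I genes fell in 10 of 60 and rose in none, with a median of -0.57 and line medians of -0.32, -0.96 and -0.56. GAR1, a protein of the particles that pseudouridylate ribosomal RNA, had 359, 524 and 202 scaled reads with the combination, against 953, 1851 and 653 with DMSO (-1.64 ± 0.21). FBL, the methyltransferase fibrillarin, had 2245, 3187 and 2457 with the combination, against 4319, 6294 and 4791 with DMSO (-0.96 ± 0.14). In both genes every combination library lay below every DMSO library. ZNRD1, an RNA polymerase I subunit (-1.62 ± 0.28), and MRTO4 (-1.18 ± 0.22) fell, and the largest subunit POLR1A did not pass (-0.36 ± 0.16). The count was 4 under median-of-ratios rescaling and under quantile normalization, 0 without MDAMB231, 1 without HCC1806 and 9 without SUM159. Cytosolic ribosomal protein genes did not pass in any of 53, with a median of -0.01. SnoRNA host genes fell in 2 of 25, SNHG4 (-1.43 ± 0.27) and DANCR (-1.10 ± 0.21), and both missed the threshold whichever line was left out.

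Respiratory chain and mitochondrial ribosome genes fell in 6 of 50, with a median of -0.20. MRPL3 had 2552, 1881 and 1625 with the combination, against 5797, 4629 and 4951 with DMSO (-1.36 ± 0.16), and the groups did not overlap. MRPS15 (-1.38 ± 0.19), MRPL15 (-1.09 ± 0.19) and the ATP synthase gene ATP5G1 (-0.95 ± 0.18) fell. Spliceosome genes fell in 3 of 42, SNRPF (-1.07 ± 0.17), SNRPC (-0.86 ± 0.15) and SNRPE (-0.79 ± 0.16), and the speckle protein gene SRRM2 rose (0.88 ± 0.17). Of 35 proteasome subunits PSMB2 fell (-0.85 ± 0.16), a share of 2.86% beside 3.54% of all genes. ATF4, the transcription factor of the amino acid response, had 2416, 1531 and 3020 with the combination, against 7345, 6223 and 5288 with DMSO (-1.48 ± 0.25, adjusted p = 0.0367). Its groups did not overlap. Its targets TRIB3 (-2.06 ± 0.20) and NUPR1 (-4.19 ± 0.58) and the methionyl-tRNA synthetase gene MARS (-1.08 ± 0.17) fell, making 4 of 47 in that list, and DDIT3 did not pass (-0.46 ± 0.32). NUPR1 was low with the combination, at 14.2, 2.67 and 0, against 525, 29.4 and 20.3 with DMSO. Over the alternative settings its log2 change ran from -5.43 to -2.57. Without MDAMB231, where few genes passed in all, no member of these 4 lists passed.

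Among 41 genes of the type I interferon response 5 fell and 1 rose, with a median of -1.17 and line medians of -0.87, -0.55 and -1.04. IFI44, an interferon-induced protein gene, had 61.4, 21.3 and 45.8 scaled reads with the combination, against 458, 184 and 521 with DMSO (-3.14 ± 0.32). OAS3, a sensor of double-stranded RNA, had 67.1, 66.7 and 1294 with the combination, against 526, 705 and 6214 with DMSO (-2.87 ± 0.28). Both were lower in each line, and only IFI44 was without overlap of the groups. PARP9 (-1.45 ± 0.28) and PARP14 (-1.34 ± 0.18) fell, while IRF7, a transcription factor of the interferon response, rose by 1.90 ± 0.38. Of 22 antigen presentation genes the proteasome subunit PSMB8 (-1.63 ± 0.21) and the peptide transporter TAP2 (-1.46 ± 0.22) fell, and B2M did not pass (0.72 ± 0.16, adjusted p = 0.0506). NF-kB factors, cytokines and chemokines fell in 3 of 34, namely NFKB1 (-1.05 ± 0.17), LIF (-2.46 ± 0.37) and CSF2 (-4.01 ± 0.60), with a median of -0.71. CSF2 lay near 0 with the combination, at 0.945, 2.67 and 0, against 15.2, 76.9 and 22.4 with DMSO. Its log2 change ran from -5.5 to -1.89 over the alternative settings. RELA did not pass (0.15 ± 0.15). Without MDAMB231, where few genes passed in all, no member of these 3 lists passed.

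Growth arrest genes and cyclins rose in 4 of 33 and fell in none. CDKN1A, which encodes the cyclin-dependent kinase inhibitor p21, had 6053, 8086 and 2900 with the combination, against 2816, 1552 and 1003 with DMSO (1.67 ± 0.26). The lowest combination library lay just above the highest DMSO library. TXNIP, an inhibitor of thioredoxin and glucose uptake, had 38596, 46043 and 2332 with the combination, against 7794, 4295 and 961 with DMSO (2.34 ± 0.39). It was higher in each line, and ARRDC4, a relative of it, rose by 2.13 ± 0.40. CCND1 did not pass, with log2 ratios of 0.66, 1.54 and 0.00. In the list of ERK output, AP-1 and MYC genes the AP-1 gene JUND rose (1.73 ± 0.19), while the ETS factor ETV4 (-1.61 ± 0.20) and the AP-1 partner BATF3 (-2.82 ± 0.40) fell, of 42 tested. MYC had 7079, 8432 and 2600 with the combination, against 7482, 6825 and 7428 with DMSO, and did not pass (-0.43 ± 0.35). It was far below DMSO in HCC1806 alone. Among 35 cell death regulators CASP10 (-1.91 ± 0.38) and BNIP1 (-1.77 ± 0.29) fell, and neither BCL2 (-0.84 ± 0.24) nor the pro-apoptotic BCL2L11 (1.42 ± 0.32, adjusted p = 0.0549) passed. Without MDAMB231, where few genes passed in all, no member of these 3 lists passed.

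Receptor tyrosine kinase genes rose in 2 of 37 (5.41%) and fell in 2 (5.41%), beside 3.45% and 3.54% of all genes. FGFR1 had 4794, 6554 and 2006 with the combination, against 1794, 3077 and 229 with DMSO (1.88 ± 0.40). MET, the hepatocyte growth factor receptor, had 4497, 5143 and 5548 with the combination, against 7622, 10592 and 11135 with DMSO (-0.94 ± 0.15). The groups overlapped for FGFR1 and not for MET. FGFR1 lay at the threshold and was lost under several alternatives. TYRO3 fell by 1.41 ± 0.27. Without MDAMB231 the list held 1 rise, FGFR3, and no fall, and without HCC1806 2 rises and no fall. In the matrix list, the integrin gene ITGA10 fell (-4.73 ± 0.92), as did HAS2, and ITGB3 rose (1.57 ± 0.33), among 3 falls and 1 rise of 53 tested. Both integrin values rest in part on libraries near 0. CAV1, the coat protein of caveolae, had 3114, 8771 and 8173 with the combination, against 11023, 18697 and 24690 with DMSO (-1.50 ± 0.19), and it passed without any 1 line. CAV1 was the fall among 20 mesenchymal genes, of which TGFB1 (1.02 ± 0.16) and the fibrillin gene FBN1 (1.67 ± 0.19) rose, though neither rise passed without MDAMB231. YAP and TEAD genes fell in 2 of 24, FJX1 (-1.51 ± 0.22) and ASAP1 (-0.95 ± 0.18), neither of which passed without MDAMB231 or without HCC1806, nor ASAP1 without SUM159. None of 42 epithelial and basal genes, 11 luminal, 5 blood and endothelial or 8 fibroblast and adipocyte markers with a mean of at least 10 passed. Among 47 histone-modifying enzymes and demethylases of DNA, HDAC9 (-2.70 ± 0.51), TET1 (-2.39 ± 0.44), the H3K9 methyltransferase gene SUV39H1 (-1.46 ± 0.24) and TET3 (-1.01 ± 0.20) fell, and the deacetylase SIRT2 rose (1.15 ± 0.23). Of the falls in this list, none passed without MDAMB231, 1 did without HCC1806 and 2 did without SUM159, and SIRT2 missed the threshold whichever line was left out.

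**Figure D4:**
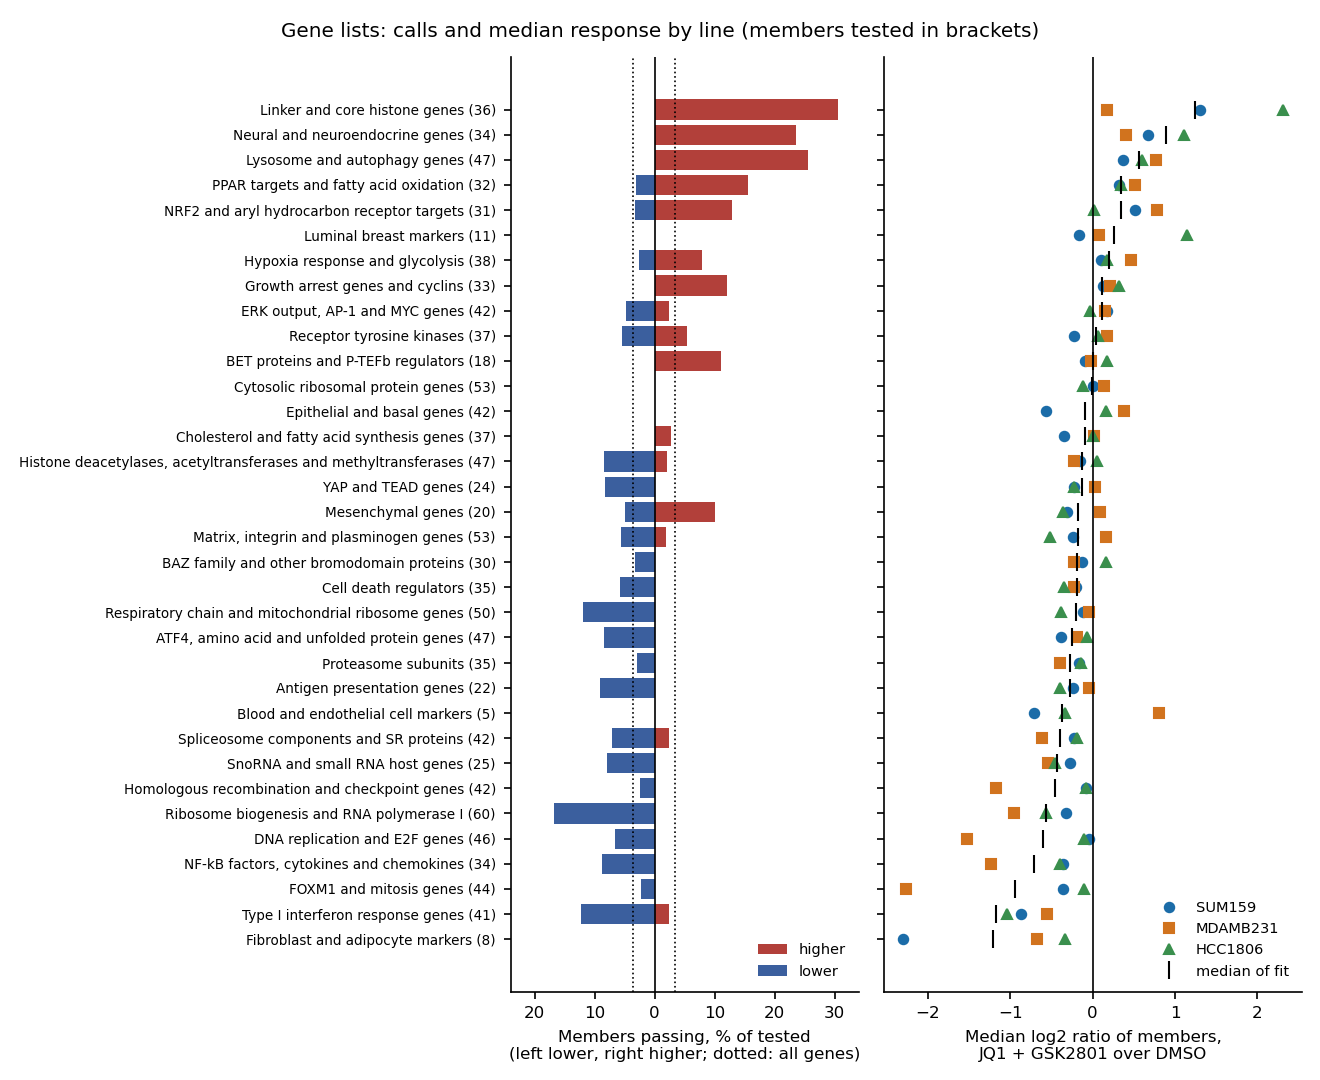
Left, share of tested members of each list that passed upward (right of 0) or downward (left of 0), in percent, with dotted lines at 3.45% and 3.54% for all genes. Right, median log2 ratio of the combination over DMSO in each line (points) and median of the 3-line log2 fold changes (bars). Histone genes have 11 of 36 members passing upward, and the MDAMB231 median of mitosis genes is -2.27.

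The single inhibitors were measured in the same lines, which lets the combination be set beside each of them at the same doses. The responses to the combination, to JQ1 and to GSK2801 share the same DMSO libraries, so each one's own values are given side by side. No gene passed between the combination and JQ1 alone in limma with line as a block, of 13948 tested, while 2597 had an unadjusted p below 0.05 and the smallest adjusted p was 0.110. Without MDAMB231 48 genes passed. HEXIM1 had 9756, 8933 and 8566 scaled reads with the combination and 7082, 6483 and 6270 with JQ1 alone (log2 0.46 ± 0.07, adjusted p = 0.110). HIST1H2BD had 2138, 4324 and 2659 with the combination and 887, 1400 and 1185 with JQ1 alone (1.35 ± 0.10, 95% interval 1.10 to 1.61, adjusted p = 0.110). It was higher with the combination in 3 of 3 lines, as were CD68, a lysosomal membrane protein gene (1.24 ± 0.11), and MAP1A (1.09 ± 0.10), the other genes of smallest p in that direction. SCNN1A, a sodium channel subunit (-0.92 ± 0.09), ADGRG6 (-0.88 ± 0.10) and NRM (-1.09 ± 0.12) were those of smallest p below JQ1 alone. CYP1A1 stood at 179, 579 and 3934 with the combination and at 31.9, 242 and 829 with JQ1 alone (1.98 ± 0.24, adjusted p = 0.110).

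Against GSK2801 alone, 300 of 14209 genes passed (2.11%), 154 higher (1.08%) and 146 lower (1.03%) with the combination. Those of smallest p were HIST2H2AA3 (3.53 ± 0.24), HIST1H2BD (3.87 ± 0.31), the inhibitor of differentiation ID2 (3.12 ± 0.26), FGFR3 (2.70 ± 0.23), BAIAP3, CAPN5, HEXIM1 (1.65 ± 0.14) and EFR3B upward. HAS2 (-3.93 ± 0.29), ZNF618 (-2.62 ± 0.22), the cytokine receptor IL27RA (-2.40 ± 0.22), ZNF532, SLC7A11 (-2.00 ± 0.19), GAL and SEMA6B (-2.44 ± 0.24) were among those downward. None of the 300 passed without SUM159 or without HCC1806, where fewer libraries entered the fit, and 271 genes passed without MDAMB231. In the departure from additivity, the log2 response to both minus the sum of the single responses, none of 14232 genes passed (limma, smallest adjusted p 0.450, 1328 with an unadjusted p below 0.05). The smallest p-values were those of CD68 (0.93 ± 0.11, 95% interval 0.67 to 1.18), ALPP (1.93 ± 0.24) and TRNP1 (0.92 ± 0.12) above the sum and ANXA8 (-1.04 ± 0.14), SCNN1A and ADGRG6 below it.

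Within lines, list medians are set side by side for the 3 treatments. The median of the mitosis genes in MDAMB231 was -2.27 with the combination, -1.04 with JQ1 and -0.03 with GSK2801, each against DMSO. All 44 of them were lower with the combination than with JQ1 alone in MDAMB231, and 32 and 26 were in SUM159 and HCC1806, beside 45.0%, 45.5% and 53.9% of all genes. Replication genes had MDAMB231 medians of -1.52, -0.97 and -0.06 with the combination, JQ1 and GSK2801, and 46 of 46 were below JQ1 alone there, with 22 in SUM159 (47.8%) and 31 in HCC1806 (67.4%). Histone gene medians were 1.30, 0.18 and 2.31 in the 3 lines with the combination and 1.09, 0.25 and 1.83 with JQ1. With GSK2801 they were 0.06, 0.01 and 0.00. In MDAMB231 the median was thus slightly lower with the combination than with JQ1 alone. Yet only 10 of the 36 histone genes (27.8%) were below JQ1 alone there, beside 45.0% of all genes. Lysosome gene medians with the combination were 0.37, 0.77 and 0.60 in the 3 lines, 0.20, 0.44 and 0.48 with JQ1 and 0.17, 0.08 and 0.03 with GSK2801. Ribosome biogenesis medians were -0.32, -0.96 and -0.56 with the combination and -0.32, -0.94 and -0.69 with JQ1 alone. None of these differences within a line could be tested with 1 library each.

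**Figure D5:**
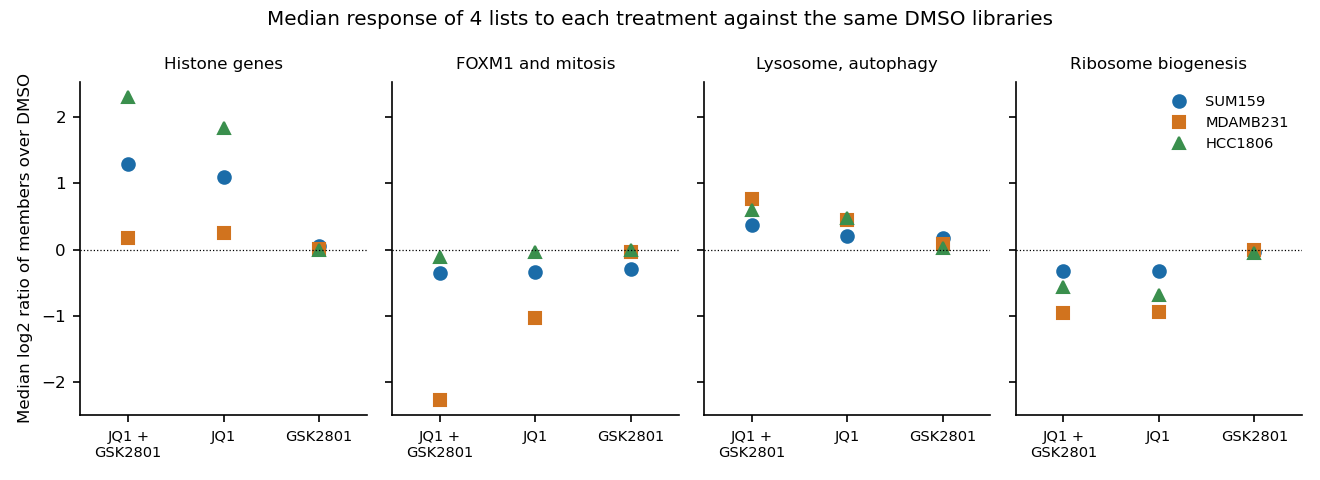
Median log2 ratio over DMSO (y axis) of the tested members of 4 lists with JQ1 plus GSK2801, JQ1 and GSK2801 (x axis), with 1 point per line, all against the same DMSO libraries. For mitosis genes in MDAMB231 the medians are -2.27, -1.04 and -0.03.

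Some genes had a log2 ratio in 1 line far from those in both others. COL3A1, a fibrillar collagen gene, had 34 with the combination against 3890 with DMSO in SUM159 and was at or below 2.14 in the other lines. RIMS2, a synaptic scaffold gene, had 9.34 against 1230 in MDAMB231. CXCR5, a chemokine receptor gene, had 1301 with the combination in MDAMB231, where its DMSO value was near 0, and 1017 and 2136 with the combination against 964 and 2107 with DMSO in SUM159 and HCC1806. HIST2H3A was higher in SUM159 and HCC1806, with log2 ratios of 4.95 and 4.82, and stood at 0.39 in MDAMB231. PLCXD3 (5.41) and DAAM2 (-4.66) stood apart in SUM159 and LINC00452 (-5.54) in HCC1806. Other genes differed in direction between lines. The chloride channel gene ANO1 had log2 ratios of -2.51, 2.4 and -3.76, of which those in SUM159 and MDAMB231 rest on values of at most 8.25. ZACN had -1.27, -4.70 and 4.88. The readthrough symbols INO80B-WBP1, at 1.08, 1.27 and -4.86, and RNASEK-C17orf49, at -3.12, 3.14 and 8.65, can share reads with their single genes. Each value within a line rests on 1 pair of libraries and has no replicate.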

How the data were processed

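RNA was sequenced from 12 libraries, of which the 6 described above enter the comparison with DMSO. The labels name RNeasy Plus extraction and disagree on the library kit. The deposited values are a signal per gene, made with STAR 2.4 and Salmon 0.60 on hg38 per the submitters' processing notes. In the files every library has an upper quartile of 1663.93, and 67.0 to 69.1% of values above 0 came out as whole reads within a tolerance of 0.02 reads, so count models were not used. Entries whose symbol had become a date, at 0.168 to 0.213% of the signal, were dropped. Depths are the deposited totals divided by the step that 1 read was worth in each library.

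R 4.3.3 with limma 3.58.1 fitted log2(value + 1) with a variance trend, line as a block and Benjamini-Hochberg adjustment over all genes with a mean of at least 10. SE and p come from this fit. The design had foreseen count or normalized values, and the signal called for limma. Line pairs the libraries, since same-numbered libraries are the same cell line. Their log2 values correlated at 0.935 to 0.952 within a line and at 0.684 to 0.81 between lines. Across the groups, deviations from group means correlated at 0.872 to 0.896 within a line and at -0.535 to -0.313 between lines. Subtracting the mean of 3 libraries by itself pushes the values between lines below 0. Data were handled with Python 3.11.15, pandas 2.3.3 and numpy 2.4.6 and drawn with matplotlib 3.10.9. Of the genes tested 98.6% have a GENCODE v29 symbol.

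The genes of this comparison and the lists were chosen with earlier results of these data known. Named are HEXIM1, HIST1H1C and FOXM1, the 12 rises and 12 falls with the largest least change over lines and at least 50 scaled reads in every library of the higher group, and per list its regulators, up to 4 members per direction that passed and up to 2 that did not. In the other comparisons up to 8 genes per direction of smallest p were named, or 3 where none passed, and for each line the 4 with the largest excess over the other lines. Genes said to be chosen after their values were seen lie outside this rule. Some genes that the rule names are not reported here.

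The fits were tested on simulated data with known changes in 50 genes per fold. In the comparison with DMSO 0 of 50 passed at 1.5-fold, 0 at 2-fold, 14 at 4-fold and 20 at 8-fold, and 0 unchanged genes passed. For the departure from additivity 4, 14, 33 and 33 passed at these folds, with 1 unchanged gene. Far fewer genes were changed in the simulation than the 4395 with an unadjusted p below 0.05 in the real comparison with DMSO. Benjamini-Hochberg adjustment is stricter where few genes change, so these shares do not give the recovery in the real data. Real changes can still be missed, and how many was not measured. Alternatives were another pseudocount, filter, scaling, variance model, threshold, sample set or block, and leaving out each line.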

Additional observations from a re-analysis of the deposited data

Results flagged for a closer look

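Groups of 3 libraries were not examined for a library that stands apart. For 3 named genes HCC1806 went at least 1 log2 unit in one direction and both other lines at least 1 in the other, and the difference between lines was not tested. ALPP, a placental-type alkaline phosphatase, had a log2 ratio of the combination over DMSO of -1.76 in HCC1806, with 1.26 in SUM159 and 1.55 in MDAMB231. INO80B-WBP1, a readthrough symbol that can share reads with its single genes, had -4.86 in HCC1806, with 1.08 in SUM159 and 1.27 in MDAMB231. ZACN, a ligand-gated ion channel gene, had 4.88 in HCC1806, with -1.27 in SUM159 and -4.70 in MDAMB231.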

How the results depend on the processing

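In the combination against DMSO 994 genes passed. The count was 520 with a pseudocount of 0.1, 910 with 10, 1125 with a mean of at least 100, 1100 with median-of-ratios rescaling (645 higher, 455 lower) and 901 with quantile normalization (547 higher, 354 lower, beside 491 and 503). It was 0 without a low-value filter, 0 without a variance trend and 0 against a threshold of 1.5-fold, where 1539 had an unadjusted p below 0.05. Leaving out 1 line gave 40 (without MDAMB231) to 1059 (without SUM159). All 12 libraries in 1 fit gave 4959, the 994 among them. Without the replicate block, so without pairing by line, 0 passed and 947 had an unadjusted p below 0.05. In the combination against JQ1 leaving out 1 line gave 0 to 48, and for the departure from additivity 0 to 2. In the combination against GSK2801 the 300 became 0 with a pseudocount of 0.1, without the filter, without the trend, at 1.5-fold and without the replicate block, 458 with a mean of at least 100, 4132 with 12 libraries, and 0 to 271 without 1 line. Of 112 named genes that passed, 89 did so when SUM159 was left out, 19 for MDAMB231 and 66 for HCC1806. Log2 ratios that changed sign were of genes that had not passed: CDH1 (0.01 with a pseudocount of 10), CDK9 (0.05 with median-of-ratios, 0.02 with quantiles), VIM (-0.42 with quantiles) and ZACN (0.08 with quantiles). Over leaving out each line, values ran from -0.25 to 1.40 for ALPP, -0.11 to 0.34 for BAZ2A, -1.05 to 1.01 for CDH1, -0.11 to 0.11 for CDK9, -1.91 to 0.90 for DAAM2, -0.54 to 0.35 for E2F1, -1.89 to 1.17 for INO80B-WBP1, -2.02 to 0.20 for KRT5, -2.77 to 0.14 for LINC00452, -0.80 to 0.11 for MYC, -0.87 to 2.71 for PLCXD3, -0.10 to 0.08 for PPARD, -0.14 to 0.29 for SREBF2, -0.22 to 0.43 for VIM and -2.99 to 1.80 for ZACN. The cause of these shifts was not tested. A gene that did not pass may still differ.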
